A study of Mus musculus with 27 samples.

Results

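Heat shock chaperones were examined in the ileal epithelium of mice treated with TCDD (2,3,7,8-tetrachlorodibenzo-p-dioxin), a persistent ligand of the aryl hydrocarbon receptor, AhR. The genes were chosen by name, as 10 rows of count tables that list 46078 Ensembl genes: *Hspa1a*, *Hspa1b*, *Hspa8*, *Hsph1*, *Dnajb1*, *Hsp90aa1*, *Hspb1*, *Hspd1*, *Hspe1* and *Hsf1*. All 10 were found and all 10 were among the 16741 genes that passed the filter on low counts. The set was put forward as cytosolic chaperones driven by HSF1, but *Hspd1* and *Hspe1* encode mitochondrial proteins and *Hsf1* encodes the factor itself. These 3 are therefore described by name, while counts and medians below are over all 10 genes. RNA-Seq was performed on epithelium scraped from the distal ileum of 27 male C57BL/6 mice, taken on postnatal day 56. Mice 2, 3 and 4 received the sesame oil vehicle by gavage, and 3 mice at each of 8 doses from 0.01 to 30 µg/kg received TCDD, at intervals of 4 days over 28 days. The mice were co-housed and their cages are not given in the labels, so cage and dose were not separated.

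Heat shock proteins bind unfolded or newly made proteins and keep them from aggregating. Under heat or proteotoxic stress, HSF1 leaves its complex with chaperones, forms trimers, and activates its target genes by binding heat shock elements, arrays of the unit NGAAN in alternating orientation. Several of these proteins are also abundant without stress, and HSP90 holds the unliganded AhR in the cytosol. The intestinal epithelium renews itself continuously from dividing crypt cells.

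The promoter windows of RefSeq (GRCm38.p6, from 250 bases before to 50 bases after a transcription start) contained entries for 7 of the 10 genes, leaving out *Hspa8*, *Hsp90aa1* and *Hsf1*. They were searched on both strands for 2 adjoining heat shock units, GAANNTTC or TTCNNGAA, each of which reads the same on both strands, and for 3 adjoining units, GAANNTTC followed by NNGAA, every match of which also holds a match of both former motifs. Of all 32851 windows, 7.86% held GAANNTTC, 8.52% held TTCNNGAA and 0.603% held 3 units. Shown are the element between *Hspd1* and *Hspe1*, the pair that fell with dose, and the stretches of 3 genes with units 51 to 150 bases before the start, with the heat shock units in capitals.
Hspd1 and Hspe1, shared (chr1:55088053-55088082, + strand, 95 to 66 bases before the *Hspe1* start): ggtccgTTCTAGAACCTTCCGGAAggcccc
Hspa1a (chr17:34972207-34972306, - strand, 150 to 51 bases before the start): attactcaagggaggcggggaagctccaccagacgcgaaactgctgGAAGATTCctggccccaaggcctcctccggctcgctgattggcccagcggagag
Hspa1b (chr17:34959289-34959388, - strand, 150 to 51 bases before the start): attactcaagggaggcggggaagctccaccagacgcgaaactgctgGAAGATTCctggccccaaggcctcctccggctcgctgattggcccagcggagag
Hspb1 (chr5:135887769-135887868, + strand, 150 to 51 bases before the start): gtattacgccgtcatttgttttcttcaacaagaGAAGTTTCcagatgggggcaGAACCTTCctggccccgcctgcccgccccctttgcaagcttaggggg
*Hspd1* and *Hspe1* lie head to head on chromosome 1, and the 18 bases in capitals, from 55088059 to 55088076, stand between the *Hspe1* start and the start of a shorter *Hspd1* transcript, inside the first exon of another *Hspd1* transcript (GENCODE M21). The stretches printed for *Hspa1a* and *Hspa1b* differ at 0 bases, and their 250 bases before the start differ at 3. Units were also found in the *Hsph1* windows and none in the *Dnajb1* windows. The core of the AhR response element, GCGTG on either strand, was present in 32.4% of all windows and in those of 3 of the 7 genes, *Hspd1*, *Hspe1* and *Dnajb1*. The former share is per window, while some of the genes have more than 1 window, so the shares are not alike. The windows of *Hspe1* and of the shorter *Hspd1* transcript overlap, and the GCGTG matches in them are the same sites. These matches describe letters in the sequence and are not evidence of binding.

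Each library held between 12.26 and 17.14 M counts on genes, with a median of 14.14 M. Library indexes were read from the names of the deposited count data. In the order of the sample list, each index appeared a first time in 16 mice (vehicle to 0.3 µg/kg and mouse 41 at 1 µg/kg) and again in the other 11. First and second index use mean this order only, and whether the uses were separate pools or runs is not given. Apart from the mice at 1 µg/kg, dose and index use therefore cannot be told apart. *Cyp1a1*, the classic AhR target, was present at 0.211, 0 and 0.138 CPM (counts scaled to equal library size) in vehicle mice and at 1060, 1880 and 2280 CPM at 30 µg/kg. Enterocyte markers summed to between 11200 and 13500 CPM in vehicle mice and to between 10500 and 26800 CPM at 30 µg/kg. Markers of fibroblasts and endothelium lay between 78.8 and 159 CPM and between 58.6 and 104 CPM, respectively, and 0 of these lists' genes had a median count of 0 over the 27 mice, so cells other than epithelium were present. Between the same groups, goblet cell markers went from 21800-24600 to 30700-33500 CPM, enteroendocrine markers from 95.1-112 to 186-213 CPM, and B and plasma cell markers from 496-612 to 249-353 CPM. Myeloid markers went from 80.5-105 to 57.7-76.4 CPM and smooth muscle markers from 25-109 to 36.2-345 CPM. Of 5 myeloid markers tested, 3 were lower and 2 higher at 30 µg/kg, and 1 was called, *Itgam* (log2 fold change -1.78). The part of all these cell types in the results was not tested.

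In vehicle mice, the inducible HSP70 genes *Hspa1a* and *Hspa1b* and the small heat shock protein gene *Hspb1* were expressed below the other 7 genes. Per kb of exon, *Hspa8*, the constitutive cytosolic HSP70, reached 30.8 ± 1.86 CPM per kb (SD, n = 3) and *Hspd1*, the mitochondrial chaperonin HSP60, 30.3 ± 5.19, with overlapping ranges. *Hspe1*, the co-chaperonin that caps HSP60, followed at 20.2 ± 2.90, *Hsp90aa1*, the inducible cytosolic HSP90, at 16.8 ± 2.12, and *Dnajb1*, the HSP40 that delivers clients to HSP70, at 10.5 ± 0.343. *Hsph1*, a nucleotide exchange factor of HSP70, reached 3.82 ± 0.368 and *Hsf1* 1.87 ± 0.122. The inducible HSP70 genes *Hspa1b* and *Hspa1a* stood at 0.962 ± 0.0870 and 0.334 ± 0.108, and the small heat shock protein gene *Hspb1* at 0.367 ± 0.0382. Besides *Hspa8* and *Hspd1*, only *Hspb1* and *Hspa1a* overlapped among neighbours in this order. *Hspa1a* and *Hspa1b* share 66.3% and 62.3% of their 50-base stretches with other genes, mainly each other, and 50.1% of those of *Hspb1* occur elsewhere, so reads aligned to more than 1 place may have been lost from these 3 levels. The same share was 39.4% for *Hspa8*, 47.5% for *Hsp90aa1*, 42.1% for *Hspd1* and 22.8% for *Hspe1*. The annotated exons of *Hspa1a* also overlap those of *Gm20481*, on the opposite strand, over 19.0% of the *Hspa1a* exon length. Reads there may have been lost as well.

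**Figure D1:**
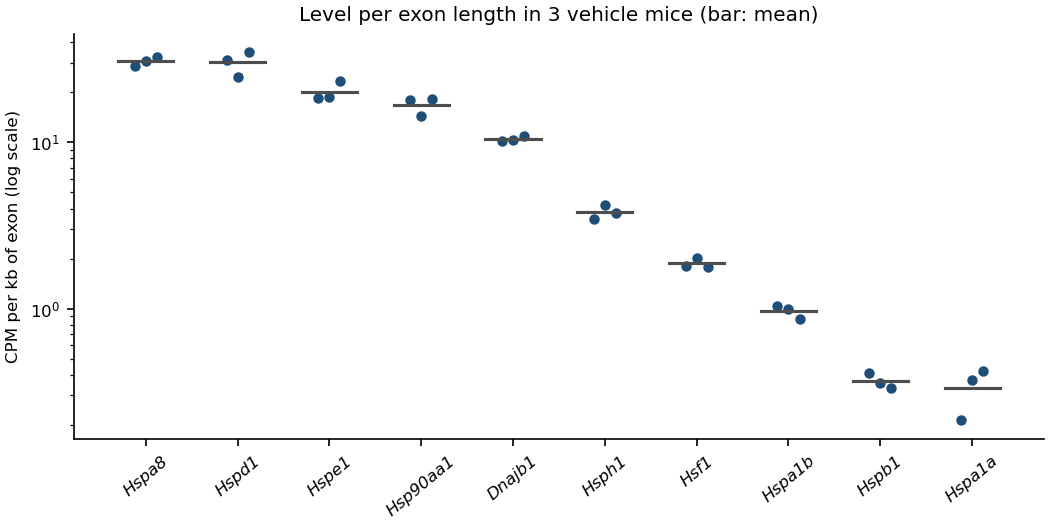
CPM per kb of exon (log axis) in the 3 vehicle mice for each gene, with points for mice and bars for means. The levels run from 30.8 for *Hspa8* to 0.334 for *Hspa1a*, and only the first pair and the last pair of neighbours overlap.

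The question put to each gene was whether TCDD changed its expression relative to vehicle at each dose. *Hspe1* was repressed at 30 µg/kg, and the other 9 genes did not pass both limits at any dose, namely an adjusted p no higher than 0.05 and a 1.5-fold or larger change. By the quasi-likelihood test of edgeR, adjusted by Benjamini-Hochberg, 0 of 10 genes were called at 0.01, 0.03, 0.1 and 0.3 µg/kg, where 0 of all 16741 genes were called either, and 0 of 10 had an unadjusted p under 0.05. At 1, 3 and 10 µg/kg, 0 of 10 genes were called, while 0.591%, 1.11% and 2.53% of all genes were, and 2, 1 and 1 of the 10 had an unadjusted p under 0.05. DESeq2 also called 0 of 10 at each of these doses. At 30 µg/kg, 1 of 10 genes was called, against 9.40% of all genes in either direction and 3.98% called lower. By adjusted p alone, 3 of 10 passed (*Hspe1*, *Hspd1* and *Hspa8*), against 17.8% of all genes. Across the 10 genes, 5 estimates were higher and 5 lower than vehicle at 30 µg/kg, with a median log2 fold change of 0.03 against 0.02 over all genes. The lower ones were *Hspd1*, *Hspe1* and *Hsf1*, which are not cytosolic chaperones, and the cytosolic *Hsph1* and *Hsp90aa1*. Epithelium was measured in bulk, and a lower share of the cells that express a gene cannot be told apart from less RNA per cell.

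**Figure D2:**
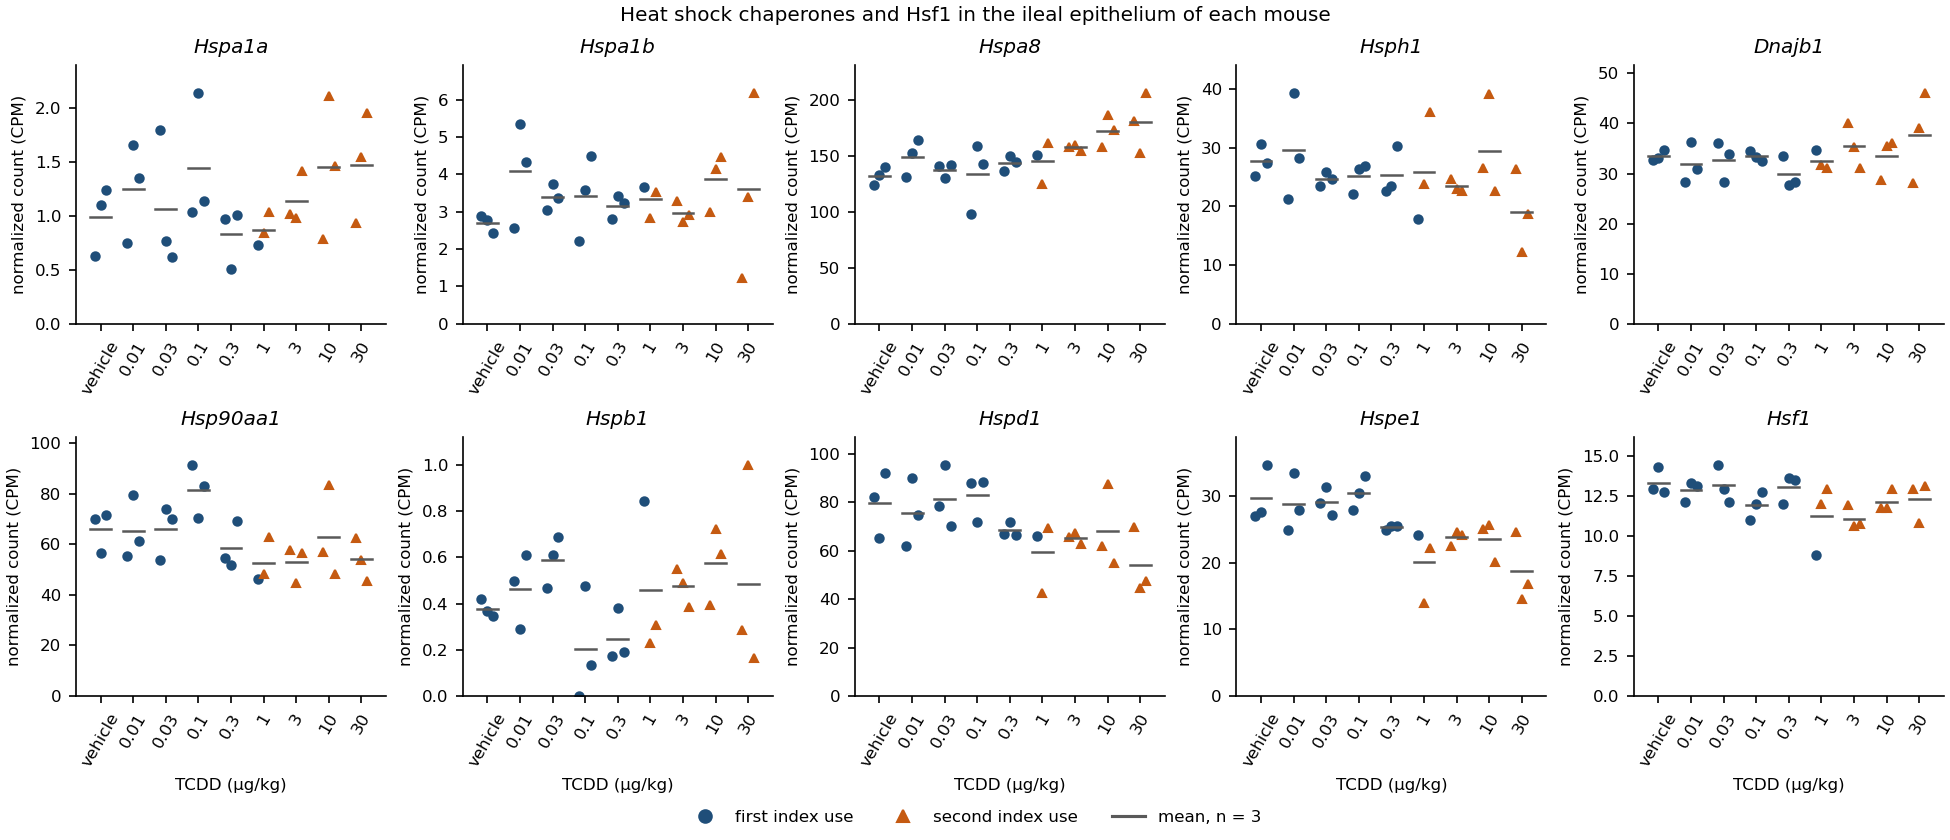
Normalized counts (CPM) of the 10 genes in each of 27 mice against TCDD dose, with bars for the mean of 3 mice and symbols for the first (circles) and second (triangles) use of the library indexes. *Hspa8* rises from a mean of 132.6 CPM in vehicle to 179.9 CPM at 30 µg/kg, and *Hspe1* falls from 29.8 to 18.7 CPM.

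*Hspe1* (ENSMUSG00000073676, chromosome 1, 55088132 to 55091307, + strand, GRCm38) was present at 27.1, 27.6 and 34.7 CPM in vehicle mice 2, 3 and 4. At 30 µg/kg it was present at 24.7, 14.6 and 16.9 CPM in mice 65, 67 and 68. All treated mice lay below all vehicle mice, mouse 65 narrowly. The log2 fold change was -0.67 (standard error 0.18, 95% confidence interval -1.03 to -0.30), a 1.59-fold repression with an adjusted p of 0.0107 (edgeR quasi-likelihood, Benjamini-Hochberg). Without mouse 67, without mouse 68 or without vehicle mouse 4, the adjusted p rose to 0.0884, 0.0528 and 0.0744 in the same edgeR test. Without mouse 65 the log2 fold change was -0.95. Of all genes, 1574 were called at 30 µg/kg, against 878 without mouse 67 and 2508 without mouse 65. The weight of single mice at this dose was thus not particular to *Hspe1*. *Hspe1* also lay below the vehicle range in every mouse at 0.3, 1, 3 and 10 µg/kg. At 0.3 µg/kg, within the same index use as the vehicle mice, it stood at 25.0, 25.5 and 25.6 CPM, with a log2 fold change of -0.23 (adjusted p = 0.811, edgeR). At 1 µg/kg it stood at 24.2, 13.9 and 22.2 CPM in mice 41, 43 and 44, at 3 µg/kg at 22.6, 24.7 and 24.2 CPM, and at 10 µg/kg at 25.1, 25.7 and 20.2 CPM. The log2 fold changes at 1, 3 and 10 µg/kg were -0.56, -0.32 and -0.33, with adjusted p of 0.13, 0.434 and 0.338 in the edgeR test.

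*Hspd1* (ENSMUSG00000025980, chromosome 1, 55077835 to 55088243, - strand) moved with its neighbour but missed the limit on fold change. Vehicle mice held 82.3, 65.2 and 92.3 CPM, and the mice at 30 µg/kg held 69.9, 44.8 and 47.6 CPM. Mouse 65 lay within the vehicle range and mice 67 and 68 lay below it. The log2 fold change was -0.56 (standard error 0.19, 95% confidence interval -0.96 to -0.16), or 1.48-fold, with an adjusted p of 0.0469 in edgeR's test. *Hspd1* stood close to both limits, and it passed both in 11 of the 27 edgeR fits that leave out 1 mouse. Without mouse 65 the log2 fold change was -0.82 (adjusted p = 0.00436, edgeR) and without vehicle mouse 3 it was -0.72 (adjusted p = 0.0244, edgeR). Without mouse 67, mouse 68, vehicle mouse 2 or vehicle mouse 4, the adjusted p was 0.215, 0.162, 0.101 and 0.194 in the same edgeR fit. At 1, 3 and 10 µg/kg the log2 fold changes were -0.43, -0.29 and -0.23, none past the test (adjusted p = 0.32, 0.546 and 0.597 by edgeR). The annotated exons of *Hspd1* and *Hspe1* overlap by 112 bases on opposite strands, which is 7.6% of the *Hspe1* exon length, and the strand setting of the counting is not given in the sources used here.

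*Hspa8* (ENSMUSG00000015656, chromosome 9, 40800984 to 40810087, + strand) went the other way. Its levels were 124, 133 and 140 CPM in vehicle mice and 181, 152 and 206 CPM at 30 µg/kg, and the groups did not overlap. The log2 fold change was 0.44 (standard error 0.13, 95% confidence interval 0.16 to 0.72), or 1.36-fold, with an adjusted p of 0.0243 in edgeR's test, below the fold change limit. At 10 µg/kg the 3 mice (158, 186 and 173 CPM) and at 3 µg/kg the 3 mice (158, 160 and 154 CPM) also lay above all vehicle mice, with log2 fold changes of 0.38 and 0.25 and adjusted p of 0.125 and 0.434 (edgeR). Without mouse 68 the estimate at 30 µg/kg was 0.33, with an adjusted p of 0.137 in the edgeR test, and without vehicle mouse 2, 3 or 4 the adjusted p was 0.0996, 0.0742 and 0.0517. Over the 10 genes, 1 gene did not overlap between vehicle and 1 µg/kg, 4 between vehicle and 3 µg/kg, 3 at 10 µg/kg and 2 at 30 µg/kg, against 20.5%, 24.5%, 23.2% and 27.1% of all genes tested. At 0.01, 0.03, 0.1 and 0.3 µg/kg, 0, 2 (*Hspa1b* and *Hspb1*, higher), 1 (*Hsf1*, lower) and 1 (*Hspe1*, lower) did not overlap, against 11.2%, 10.0%, 13.7% and 16.5% of all genes. For 3 mice against 3, the exact permutation test cannot give a p below 0.1.

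The inducible cytosolic genes showed wide spread and no change past the test. *Hspa1a* had 0.633, 1.1 and 1.24 CPM in vehicle mice and 0.930, 1.55 and 1.95 CPM at 30 µg/kg, which is 8 to 32 counts per mouse over all 27. The groups overlapped, and the log2 fold change was 0.56 (95% confidence interval -0.35 to 1.47, adjusted p = 0.411, edgeR). *Hspa1b* had 2.88, 2.78 and 2.42 CPM in vehicle mice and 1.22, 3.4 and 6.18 CPM at 30 µg/kg. Mouse 65 was thus the lowest and mouse 68 the highest of all 27 mice for this gene, and the log2 fold change was 0.40 (95% confidence interval -0.34 to 1.15, adjusted p = 0.478, edgeR). With the counts of both genes summed and fitted as 1 gene, an alternative chosen after the values were seen, the log2 fold change was 0.45 (adjusted p = 0.361, edgeR). A doubling of *Hspa1a* or *Hspa1b* is thus within the interval at this depth and spread, so no difference was detectable rather than absent.

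*Dnajb1* was tighter, with 32.7, 33.1 and 34.8 CPM in vehicle mice and 28.2, 39.1 and 46.1 CPM at 30 µg/kg. Its treated mice lay on both sides of the vehicle mice, with a log2 fold change of 0.17 (95% confidence interval -0.12 to 0.46, adjusted p = 0.432, edgeR). *Hsp90aa1*, present at 70.2, 56.6 and 71.7 CPM in vehicle mice and 62.6, 53.9 and 45.6 CPM at 30 µg/kg, differed by -0.29 (95% confidence interval -0.68 to 0.10, adjusted p = 0.309, edgeR). *Hsph1* stood at 25.2, 30.6 and 27.4 CPM in vehicle mice and at 26.3, 12.2 and 18.7 CPM at 30 µg/kg. Mouse 65 again lay in the vehicle range, and the log2 fold change of *Hsph1* was -0.54 (95% confidence interval -1.06 to -0.02, adjusted p = 0.147, edgeR), or -0.88 without mouse 65 (adjusted p = 0.0185, edgeR). *Hspb1* was detected at 0 to 15 counts per mouse, and its interval at 30 µg/kg, -0.99 to 1.69 on the log2 scale, is too wide to describe a direction. *Hsf1* varied least, with group means between 11.1 and 13.3 CPM, and had a log2 fold change of -0.11 (95% confidence interval -0.37 to 0.14, adjusted p = 0.579, edgeR).

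**Figure D3:**
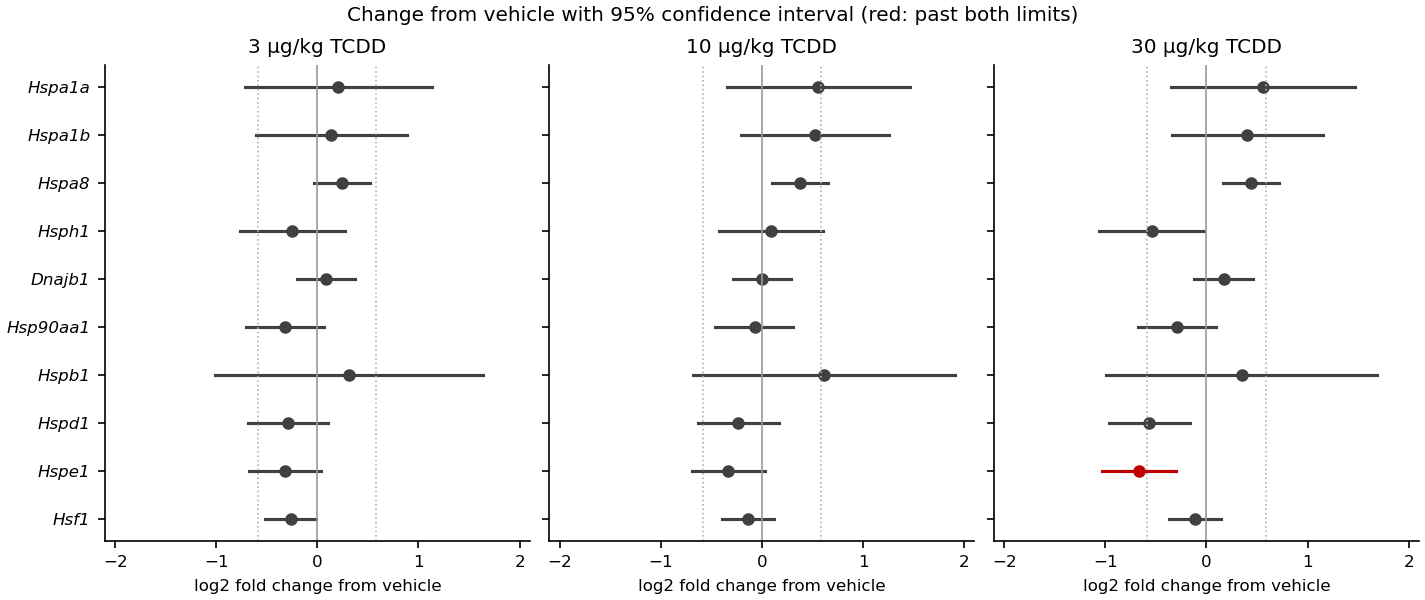
Log2 fold change from vehicle (points) with 95% confidence intervals (lines) for the 10 genes at 3, 10 and 30 µg/kg TCDD. Dotted lines mark a 1.5-fold change and red marks a gene past both limits, which is *Hspe1* at 30 µg/kg with an interval from -1.03 to -0.30.

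Dose was also tested as a trend, the slope of log2 expression over dose ranks from 0 (vehicle) to 8 (30 µg/kg), and as any difference among the 9 groups. The trend passed an adjusted p of 0.05 for 3 of 10 genes, against 26.2% of all genes. *Hspa8* rose by 0.048 per rank (adjusted p = 0.00303), while *Hspd1* fell by 0.063 (adjusted p = 0.0086) and *Hspe1* fell by 0.077 (adjusted p = 0.000978), all by edgeR's quasi-likelihood test. Any difference among groups was found for 1 of 10 genes, *Hspe1* (adjusted p = 0.0402, edgeR), against 9.53% of all genes. Within the 16 mice of the first index use, the slopes were 0.013 for *Hspa8*, -0.041 for *Hspd1* and -0.048 for *Hspe1*, and within the 11 mice of the second they were 0.107, -0.027 and -0.015, none past the test in either. With a term for index use, the log2 fold changes at 30 µg/kg were 0.52, -0.33 and -0.25 with adjusted p of 0.275, 0.697 and 0.726 (edgeR), estimates that rest on the mice at 1 µg/kg. Between 30 and 3 µg/kg, which lie within the second index use, 0 of 10 genes were called by edgeR (0 with an unadjusted p under 0.05, 0 by DESeq2), against 0.890% of all genes, and the log2 fold changes were 0.19, -0.27 and -0.35.

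*Hspd1* and *Hspe1* varied together from mouse to mouse. Over the 27 mice, Pearson's r of their log2 CPM was 0.914 and Spearman's rho 0.847. Without the 2 mice farthest from the median, r was 0.855, and it was 0.813 and 0.913 within the first and second index use. With group means removed r was 0.843, and mice were exchanged only within a dose group and index use for its permutation test (100000 resamples, 2-sided, a test chosen after the values were seen), with p = 0.00039 and an adjusted p of 0.0175 over the 45 pairs of the 10 genes. In mouse 43 at 1 µg/kg both were as low (42.5 and 13.9 CPM) as in mice 67 and 68, and these 3 mice all belong to the second index use. In all, 1 of 45 pairs, *Hspd1* with *Hspe1*, passed an adjusted p of 0.05 in this test. By r over all 27 mice, the next pairs were *Hsp90aa1* with *Hspd1* (r = 0.752, rho = 0.75) and *Hsp90aa1* with *Hspe1* (r = 0.626, rho = 0.701). Without the 2 farthest mice these r were 0.722 and 0.680, and within the first and second index use they were 0.713 and 0.723 for the former pair and 0.656 and 0.492 for the latter. With group means removed they were 0.664 and 0.403 (adjusted p = 0.102 and 0.308 by the same permutation test). By that measure several other pairs stood above the latter. Among them were *Hspa1b* with *Dnajb1* (0.651), *Hsph1* with *Hsp90aa1* (0.624) and *Hsph1* with *Hsf1* (0.603). Their adjusted p were 0.276, 0.158 and 0.245 by the same permutation test. *Hspa1a* and *Hspa1b*, the near-identical pair, gave r = 0.388 and rho = 0.386, and 0.427 with group means removed (adjusted p = 0.286 by permutation). *Hspa8* and *Hspe1*, which trended in opposite directions with dose, gave r = -0.234 and rho = -0.345, and r = 0.461 once group means were removed (adjusted p = 0.308 by permutation).

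The genes most like the cytosolic chaperones, by r with the mean standardized log2 CPM of *Hspa1a*, *Hspa1b*, *Hspa8*, *Hsph1*, *Dnajb1* and *Hsp90aa1* over 27 mice, were *Skp2* (r = 0.651), *Dnm3os* (0.608), *Ids*, *Scn8a*, *Gm2862*, *Otulinl*, *C5ar1*, *F7*, *Mex3c* and *Adgrl3* (0.558), none of them a chaperone. For the *Hspd1* and *Hspe1* pattern, a measure added after the values were seen, the nearest genes were *Hspa9*, the mitochondrial HSP70 (r = 0.950), followed by *Cdca8* (0.936), *Polq* (0.933), the cell cycle kinase *Cdk1* (0.930), *Cps1*, *Tuba1b*, *Cip2a*, *Ran*, *C1qbp* and *Nucks1* (0.918). All 27 points share dose and index use, so these values are descriptions without a test.

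Markers of stem and cycling cells moved with the chaperonin pair. Their sum was 514, 417 and 594 CPM in vehicle mice, 473, 217 and 271 CPM in mice 65, 67 and 68 at 30 µg/kg, and 262 CPM in mouse 43 at 1 µg/kg. The mice with the lowest sums were those with the lowest *Hspd1* and *Hspe1*, and mouse 65 was within the vehicle range of the sum. Of the 6 markers, 6 were lower at 30 µg/kg and 2 were called (*Lgr5*, log2 fold change -1.59, and *Top2a*, -0.65), against 3.98% of all genes called lower, with 0 at a median count of 0. The part of these cells in the result for *Hspd1* and *Hspe1* was not tested.

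**Figure D4:**
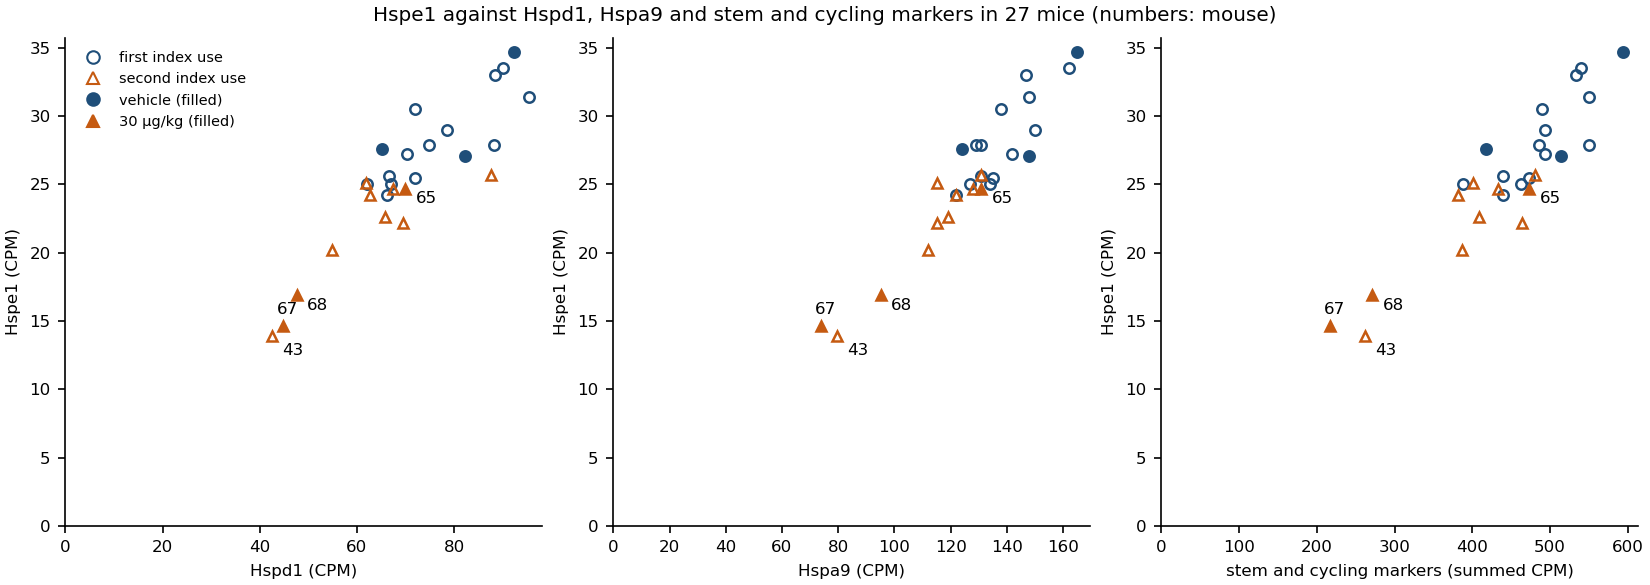
Normalized *Hspe1* (CPM) in 27 mice against *Hspd1*, *Hspa9* (both CPM) and the summed CPM of 6 stem and cycling markers. Circles and triangles are the first and second index use, filled symbols are vehicle and 30 µg/kg. Mice 43, 67 and 68 lie apart at low values in all 3 panels, and mouse 65 lies among the other mice.

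Other chaperone systems were read from lists of related genes, to be set against the 9.40% of all genes called at 30 µg/kg, the 3.98% called lower and the 17.8% past the adjusted p alone. Of the HSF1 targets and co-chaperones, 40 of 42 were tested, and at 30 µg/kg 1 was called higher and 3 lower. By adjusted p alone, 3 of the 40 were higher and 7 lower. The median log2 fold change was -0.06 against 0.02 over all genes. *Fkbp5*, an HSP90 co-chaperone of steroid receptors, was induced 4.66-fold (log2 2.22, adjusted p = 4.04e-06). *Ier5*, an immediate early gene linked to HSF1, was repressed (-1.30, adjusted p = 0.000848), as were *Hspbp1*, an HSP70 exchange factor (-0.84, adjusted p = 0.00025), and *Cacybp* (-0.64, adjusted p = 0.024), all by edgeR's test. Of the cytosolic chaperonin TRiC and its partner prefoldin, 12 of 14 genes were lower, 7 by adjusted p alone and 2 past both limits, *Pfdn4* (-0.73) and *Cct3* (-0.71), with a median of -0.31. Of 13 mitochondrial chaperones and proteases, 0 were called, although *Hspa9* (-0.54) and *Dnaja3* (-0.43) were lower and *Dnajc19* (0.51) higher by adjusted p alone, and the median was -0.18. Of 15 ER chaperones, *Herpud1*, a component of ER-associated degradation, was called higher (1.36), 1 was lower by adjusted p alone, and the median was -0.13. Among 3 of 5 tested HSF family genes and regulators, *Hsf5* was called higher (1.28).

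**Figure D5:**
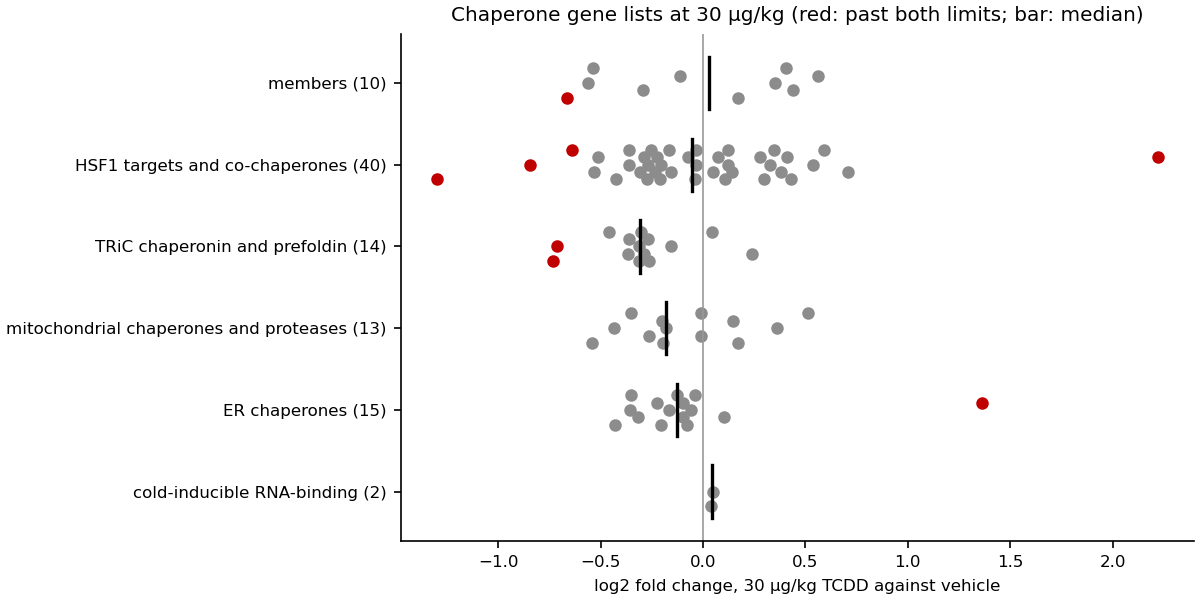
Log2 fold change at 30 µg/kg TCDD against vehicle for the 10 genes (members) and 5 related gene lists, 1 point per gene, with a bar at each median and red for genes past both limits. The TRiC and prefoldin list has its median at -0.31, and the others lie between -0.18 and 0.04.

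Several genes of time of day and temperature were read beside these results because heat shock genes follow body temperature and the clock. Of 17 clock genes, 10 were called higher and 4 lower at 30 µg/kg, against 9.40% of all genes in either direction, including *Dbp* (log2 fold change 6.29), *Per2* (2.74), *Per1* (1.70) and *Arntl* (-2.60). The cold-inducible genes *Cirbp* (0.05, 95% confidence interval -0.26 to 0.36) and *Rbm3* (0.04, -0.28 to 0.35) were not called. Of 13 immediate early genes tested, 1 was called, *Egr1* (-1.19). The part of the clock in the trends of *Hspa8*, *Hspd1* and *Hspe1* was not tested. Of the AhR complex and its targets, 4 of 10 tested were called higher (*Cyp1a1*, *Cyp1b1*, *Ahrr* and *Tiparp*) and 0 lower.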

How the data were processed

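Ileal scrapings of 27 mice were sequenced (3 mice in each of 9 groups, grouped by the labels' dose). The authors trimmed reads with Trimmomatic 0.33, aligned them to GRCm38 with TopHat2 2.1.0 and deposited raw counts per Ensembl gene and mouse, without normalization. Their processing notes also name HTSeq 0.6.1, whose options are not given. Identifiers were joined to GENCODE M21 (45143 of 46078 with a symbol). Reads matching no feature, 44.48 to 49.52% per mouse, were left out.

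Counts were normalized by TMM and tested in edgeR 4.0.16 (R 4.3.3) with a quasi-likelihood fit of 9 groups over 16741 genes kept by filterByExpr. Standard errors were the log2 fold change divided by the square root of F. Levels between genes used CPM per kb of exon. A prior count of 2 was used for log2 CPM. The gene set, lists and measures were chosen with earlier results of these data known. Genes of each list were named when past both limits at 30 µg/kg, at most 5 a list; *Hspa9*, *Dnaja3*, *Dnajc19* and the genes most like *Hspd1* and *Hspe1* were named after their values were seen. All mice are separate animals.

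Alternatives were DESeq2 1.42.0, other normalizations and filters, no fold change limit, only the 6 mice compared, index use as covariate and leaving out each mouse.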

Additional observations from a re-analysis of the deposited data

How the results depend on the processing

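The call of *Hspe1* at 30 µg/kg rested on few mice and on what stood for the spread. Of the 10 genes, 1 was called at 30 µg/kg (1574 of all genes), against 3 with no fold change limit (2976), 2 with library size only (1652), 2 with no low-count filter (1583), and 0 with only the 6 mice compared (667) or with index use as a covariate (482). Leaving out each mouse gave 0 to 3 (878 to 2508 of all genes). For any difference among groups, 1 (1596 of all genes) became 0 with upper-quartile factors (1593), library size only (1641) or index use as a covariate (106), and 3 with no filter (2045), with 0 to 2 on leaving out mice. For the trend, 3 (4379 of all genes) became 5 with library size only (4782) and 0 with index use as a covariate (195) or within the first (25) or second (237) index use. For 30 against 3 µg/kg, leaving out mice gave 0 to 1. DESeq2 and at least 10 counts in every mouse called as many of the 10 genes as the main test in each of these comparisons, with 2482 against 1596 of all genes for any difference and 245 against 149 for 30 against 3 µg/kg by DESeq2. Slopes changed sign for *Hspa1a* (-0.063), *Dnajb1* (-0.013) and *Hspb1* (-0.015) in the first index use, *Hsp90aa1* (0.011) and *Hsf1* (0.013) in the second, and *Hspa1b* (-0.003) with library size only. With index use as a covariate, *Hspe1* turned to 0.093 at 3 µg/kg and 0.082 at 10 µg/kg, and *Hspd1* to 0.006 at 10 µg/kg. On leaving out mice, *Hspa1b* ranged from -0.234 to 0.795 at 30 µg/kg (slope -0.015 to 0.035) and *Hspb1* from -0.712 to 0.741. The causes were not tested. No paired analysis was possible because the labels give mice no numbers shared between groups.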

Other observations

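*Fkbp5*, which lay outside the 10 genes, showed the largest change of the HSF1 targets and co-chaperones. It was present at 47.9, 61.3 and 65.8 CPM in vehicle mice and at 179, 336 and 299 CPM in mice 65, 67 and 68 at 30 µg/kg, and it was also higher at 10 µg/kg (118, 154 and 183 CPM). *Per1*, which like *Fkbp5* is a known glucocorticoid receptor target, stood at 27.2, 27.1 and 30.2 CPM in vehicle mice and at 75.7, 105 and 93.9 CPM at 30 µg/kg. Whether these genes share a cause with each other or with the heat shock genes was not tested.

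Mouse 68 at 30 µg/kg held the highest *Hspa1b* (6.18 CPM), *Hspa8* (206 CPM) and *Dnajb1* (46.1 CPM) of all 27 mice, while its *Hspd1* (47.6 CPM) and *Hsph1* (18.7 CPM) lay below every vehicle mouse.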
